A study of Mus musculus with 6 samples.

Results

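This account covers 10 genes that act on Wnt ligands or their receptors from outside the cell: the R-spondin genes Rspo1 and Rspo3, and the antagonist genes Sfrp1, Sfrp2, Frzb, Wif1, Dkk1, Dkk3, Notum and Apcdd1. They were chosen by name for these roles and are 10 of 18193 genes measured, with 23 of 45037 probe sets between them. Kidneys taken whole from E13.5 mouse embryos were hybridized to Affymetrix MOE430.2 arrays in 2 groups of 3 biological replicates. The Fz4-/-Fz8-/- group, called double-null here, lacked both Frizzled receptors, and the Fz4+/+Fz8-/- group, called Fz8-null, kept wild-type Fz4. Both groups lacked Fz8, so the labelled difference between them is Fz4 in the absence of Fz8. The mice were of mixed C57BL/6, 129X1/SvJ and 129S1/Sv background, and the design of the alleles, the sex of the embryos and the number of embryos behind an array are not given in the sources used here. Apcdd1 encodes a membrane-anchored protein and is therefore an antagonist that is not secreted.

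Wnt ligands carry a lipid with which they bind Frizzled receptors, and canonical signalling also needs the coreceptors Lrp5 or Lrp6. R-spondins bind Lgr receptors and the ubiquitin ligases Znrf3 and Rnf43, which otherwise remove Frizzled from the cell surface, so R-spondins raise the number of receptors. The antagonists work at different points: Sfrp proteins, Frzb and Wif1 bind Wnts, Dkk1 blocks Lrp5 and Lrp6, and Notum takes the lipid off the ligand. In the embryonic mouse kidney, Wnt9b from the ureteric bud and Wnt4 from the forming nephron drive nephron formation, and R-spondin 1 and R-spondin 3 sustain that response.

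The genotype was visible in the data, since Fzd4, which encodes Fz4, read 5.29, 4.96 and 3.89 in double-null arrays 1, 2 and 3, against 10.74, 10.86 and 10.93 in Fz8-null arrays 1, 2 and 3 (log2 intensity, normalized by the authors with RMA). A large difference was also called for Ctr9, which encodes a subunit of the PAF complex of RNA polymerase and lies on the same chromosome as Fzd4. Its brightest probe set read 6.91, 7.26 and 7.47 in double-null arrays 1, 2 and 3, against 11.15, 11.22 and 11.56 in Fz8-null arrays 1, 2 and 3, a difference of -4.10 (SE 0.19, limma adjusted p = 0.00141). In its other 4 probe sets, all dimmer, the groups overlapped, with differences of -0.53 to -0.22, and the mean of all 5 gave -1.11 (adjusted p = 0.297). As the Fzd4 and Ctr9 differences lie in the same arrays, their parts in any other difference between the groups cannot be told apart. All 3 marker lists of the main kidney compartments were above background in every array. The lowest mean over a list was 7.73 for the ureteric epithelium, 8.57 for nephron progenitors and 9.54 for renal stroma, all in double-null array 2, where probe sets near 3 to 4 were read as near background. Double-null arrays 1 and 2 stood apart from array 3 and from the Fz8-null arrays. Their signal for the B1 repeat control was 11.83 and 12.08, against 10.85 in double-null array 3 and 10.67 to 11.02 in Fz8-null arrays, and their 75th percentile over all probe sets was 8.22 and 8.19, against 8.39 in double-null array 3 and 8.39 to 8.43 in Fz8-null arrays. The beta-actin control, 3 prime minus 5 prime signal, was 1.30 and 1.08 in double-null arrays 1 and 2. It was 0.57 in double-null array 3 and 0.74 to 1.00 in Fz8-null arrays. For Gapdh the same measure was 1.15 and 1.04, against 0.88 in double-null array 3 and 0.79 to 1.01 in Fz8-null arrays. The part of these control values in probe sets of 1 gene that disagree was not tested. Marker genes of liver also differed, with list means of 6.60, 8.94 and 9.28 in double-null arrays 1, 2 and 3 against 5.50 to 6.23 in Fz8-null arrays. Arrays have no read depth, so their number limits the precision.

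None of the 10 genes passed the threshold, a limma adjusted p under 0.05 over all genes, nor did any of their 23 probe sets in the fit over all probe sets. Over the array 5 genes passed, which is 0.0275% of those tested, and 5 probe sets, which is 0.0111%. By each gene's brightest probe set, Notum and Dkk1 lay lower in all 3 double-null arrays than in any Fz8-null array, Frzb and Apcdd1 lay higher in all 3, and the groups overlapped for the other 6. Of all genes, 12.2% lay lower and 6.68% higher without overlap, 18.9% in all. At an unadjusted p under 0.05 limma gave 2 of the 10 genes, Notum and Dkk1, where it gave 15.3% of all genes, and 4 of the 23 probe sets, where it gave 15.4% of all probe sets. The log2 differences, double-null minus Fz8-null, ran from -0.74 for Notum to 0.30 for Wif1, with 6 negative and 4 positive. Their median was -0.068, beside a median of -0.061 over all genes and of -0.148 over genes with a mean of at least 6. In whole kidneys, fewer cells of a type and less RNA per cell cannot be told apart.

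**Figure D1:**
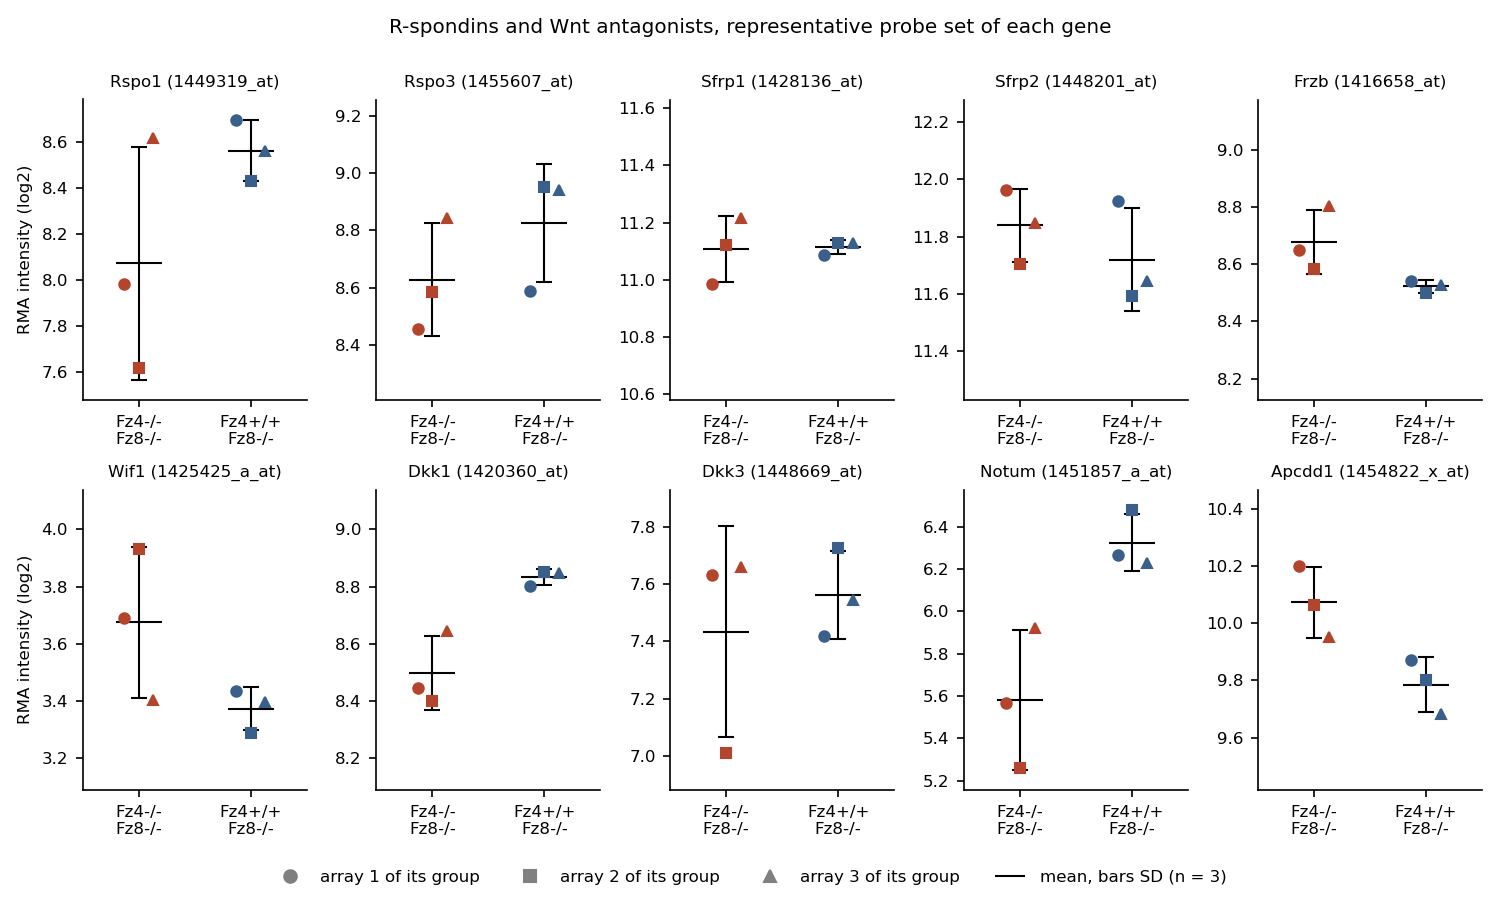
RMA log2 intensity (vertical axis, a 1-unit span or more in each panel) of the brightest probe set of each of the 10 genes in double-null arrays (red, left) and Fz8-null arrays (blue, right), with the mean and SD of 3 arrays. The groups do not overlap for Frzb, Dkk1, Notum and Apcdd1, and double-null array 3 (triangle) lies closest to the Fz8-null arrays for Rspo1, Rspo3, Wif1, Dkk1, Notum and Apcdd1.

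Rspo1 encodes an R-spondin that in the mouse also acts in ovary development. Its 1 probe set (1449319_at) read 7.98, 7.62 and 8.62 in double-null arrays 1, 2 and 3, against 8.70, 8.43 and 8.56 in Fz8-null arrays 1, 2 and 3. Double-null arrays 1 and 2 were below every Fz8-null array, and double-null array 3 was inside their range. The difference was -0.49 (SE 0.26, limma adjusted p = 0.369; 95% interval -1.10 to 0.12), a ratio of 0.712. Leaving out double-null array 3 gave -0.76 (adjusted p = 0.0275), and leaving out double-null array 2 gave -0.26 (adjusted p = 0.725). In the fit without array 3, 10.7% of all genes were called lower. In a fit with a B1 covariate (the B1 repeat signal of each array), an alternative chosen after the data were seen, the Rspo1 difference was 0.023 (adjusted p = 0.999). As B1 signal was highest in double-null arrays 1 and 2, that fit cannot fully part it from genotype, here or for the genes below.

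Markers of the gonad and mesonephric duct, tissue in which Rspo1 is also made, went both ways. Of 9 measured, 4 lay higher and 5 lower, with 0 called by limma, and their mean was 5.58, 5.59 and 5.40 in double-null arrays 1, 2 and 3 against 5.31 to 5.41 in Fz8-null arrays. The germ cell gene Dazl read 6.62, 6.60 and 4.98 in double-null arrays 1, 2 and 3, against 4.71, 3.71 and 4.56 in Fz8-null arrays 1, 2 and 3, a difference of 1.74 (SE 0.49, limma adjusted p = 0.314). Gata4, near the lower end of the scale at 4.49 or less on every array, stood at 0.37 (SE 0.17, limma adjusted p = 0.331). Dazl and Gata4 were the 2 of the 9 without overlap, both higher, as were 6.68% of all genes. Pou5f1, also a germ cell gene, stood at -0.082, Amh at -0.16 and Lhx9 at -0.052, each with overlapping groups. Nr5a1 and Foxl2, which mark the somatic gonad and the ovary, read at most 4.14 and 3.61 on any array, near background, while Sox9 and Fst had double-null means of 9.20 and 7.33 and Fz8-null means of 9.14 and 7.78. All 9 nephron progenitor genes measured had negative differences and 0 were called by limma, with 7 lower without overlap, where 12.2% of all genes were. Their mean was 8.68, 8.57 and 8.93 in double-null arrays 1, 2 and 3 against 9.43 to 9.47 in Fz8-null arrays. In mouse kidney the progenitors and the stroma make R-spondins. The part of the gonad or progenitor values in the Rspo1 difference was not tested.

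Rspo3, the other R-spondin gene of the embryonic kidney, differed less. Its brighter probe set (1455607_at) read 8.46, 8.59 and 8.84 in double-null arrays 1, 2 and 3, against 8.59, 8.95 and 8.94 in Fz8-null arrays 1, 2 and 3. All 3 double-null values lay below the 2 highest Fz8-null values and the groups overlapped, with a difference of -0.20 (SE 0.17, limma adjusted p = 0.549; 95% interval -0.60 to 0.20). A dim Rspo3 probe set (1443187_at) stood at 0.12, with group means of 4.38 in double-null and 4.26 in Fz8-null arrays. By the brightest probe set, the lowest value lay in double-null array 2 for Rspo1 and in double-null array 1 for Rspo3, whereas that of 1443187_at lay in Fz8-null array 1. Rspo2 and Rspo4, which complete the family, were near the lower end of the scale, with group means between 4.09 and 4.76, and stood at 0.077 and 0.10.

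Among the Wnt-binding antagonists, Sfrp1 and Sfrp2 were close in both groups. The brightest Sfrp1 probe set (1428136_at) read 10.99, 11.12 and 11.22 in double-null arrays 1, 2 and 3, against 11.09, 11.13 and 11.13 in Fz8-null arrays 1, 2 and 3. These values overlapped, with a difference of -0.006 (SE 0.12, limma adjusted p = 0.983; 95% interval -0.30 to 0.29), a sign that turned when arrays were set to equal medians (0.049) or quantile normalized (0.052). Its other 4 probe sets were dimmer and stood between -0.44 and -0.17, each with double-null array 3 above the Fz8-null mean and double-null arrays 1 and 2 below it. Sfrp2, which in the mouse is made in the forming nephron, read 11.96, 11.71 and 11.85 in double-null arrays 1, 2 and 3, against 11.93, 11.59 and 11.64 in Fz8-null arrays 1, 2 and 3 (1448201_at). The Sfrp2 difference was 0.12 (SE 0.15, limma adjusted p = 0.684; 95% interval -0.23 to 0.47), and the groups overlapped.

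Frzb, also known as Sfrp3, had a small shift that was higher in each double-null array. Its brighter probe set (1416658_at) read 8.65, 8.58 and 8.80 in double-null arrays 1, 2 and 3, against 8.54, 8.50 and 8.53 in Fz8-null arrays 1, 2 and 3. The lowest double-null value exceeded the highest Fz8-null value, and the difference was 0.16 (SE 0.12, limma adjusted p = 0.518). The other Frzb probe set (1448424_at) lay on the opposite side at -0.48 (SE 0.30, adjusted p = 0.415), with 5.15, 5.27 and 6.08 in double-null arrays 1, 2 and 3 against 5.58, 6.28 and 6.10 in Fz8-null arrays 1, 2 and 3, so the mean of both gave -0.16. Wif1, which binds Wnts through a domain of its own, was near background. It read 3.69, 3.93 and 3.40 in double-null arrays 1, 2 and 3 against 3.43, 3.29 and 3.40 in Fz8-null arrays 1, 2 and 3 (1425425_a_at). At this level the Wif1 difference of 0.30 (SE 0.17, limma adjusted p = 0.383) is a difference between dim signals, and it was -0.00049 in the fit with the B1 covariate.

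Dkk1, the inhibitor of Lrp5 and Lrp6 and itself a target of canonical Wnt signalling, lay lower in the double-null kidneys by its brighter probe set. That probe set (1420360_at) read 8.45, 8.40 and 8.65 in double-null arrays 1, 2 and 3, against 8.80, 8.85 and 8.85 in Fz8-null arrays 1, 2 and 3. The groups did not overlap, and the Fz8-null values differed among themselves by under 0.05. The difference was -0.34 (SE 0.13, limma adjusted p = 0.317; 95% interval -0.64 to -0.037), a ratio of 0.792, and it stayed between -0.41 and -0.29 when single arrays were left out. It was -0.21 with quantile normalization and -0.18 in the fit with the B1 covariate (adjusted p = 0.997). The dimmer Dkk1 probe set (1458232_at) read 6.45, 6.05 and 5.86 in double-null arrays 1, 2 and 3, against 6.37, 6.87 and 6.82 in Fz8-null arrays 1, 2 and 3. Its difference was -0.57 (SE 0.22, adjusted p = 0.323), with double-null array 1 inside the Fz8-null range. Double-null array 3 was the lowest array here, whereas it was the highest of the double-null arrays in the brighter probe set.

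Promoters of 5 of the 10 genes (Rspo1, Sfrp2, Frzb, Wif1 and Dkk1) were in the RefSeq promoter table of GRCm38.p6, each with 250 bases before and 50 bases after a transcription start. They were searched on both strands for CTTTGA and CTTTGT, core sequences bound by the TCF and LEF factors of canonical Wnt signalling. The promoter of Dkk1 (chr19:30549447-30549746, minus strand) held 3 matches, that of Frzb (chr2:80447347-80447646, minus strand) held 1, and the other 3 held 0. Of all 32851 promoters in the table, 31.2% held at least 1 match and 1.14% at least 3. Dkk1 and Frzb are printed because they are the genes whose groups did not overlap, in opposite directions, and whose promoter was in the table. Capitals mark the matches, which start at bases 77, 134 and 153 of the Dkk1 window and at base 156 of the Frzb window.
Dkk1: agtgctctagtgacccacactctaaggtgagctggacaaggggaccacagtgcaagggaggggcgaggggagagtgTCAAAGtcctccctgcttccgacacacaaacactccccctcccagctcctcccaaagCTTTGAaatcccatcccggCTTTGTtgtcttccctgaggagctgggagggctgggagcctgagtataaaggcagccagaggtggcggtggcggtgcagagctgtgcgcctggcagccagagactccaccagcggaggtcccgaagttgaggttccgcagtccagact
Frzb: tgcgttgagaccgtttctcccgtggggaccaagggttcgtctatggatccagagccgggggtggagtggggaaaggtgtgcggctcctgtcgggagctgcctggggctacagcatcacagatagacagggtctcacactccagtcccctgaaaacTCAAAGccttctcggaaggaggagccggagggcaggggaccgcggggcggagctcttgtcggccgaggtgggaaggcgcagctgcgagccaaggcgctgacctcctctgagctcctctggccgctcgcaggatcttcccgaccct
A match is a run of letters in this window and does not show that a factor binds there.

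Dkk3, a divergent Dickkopf gene whose product does not block Lrp5 and Lrp6 as Dkk1 does, gave unequal probe sets. It lies on chromosome 7, as do Fzd4 and Ctr9. The brighter probe set (1448669_at) read 7.63, 7.01 and 7.66 in double-null arrays 1, 2 and 3, against 7.42, 7.73 and 7.54 in Fz8-null arrays 1, 2 and 3. Only double-null array 2 left the Fz8-null range, and the difference of -0.13 (SE 0.21, limma adjusted p = 0.760) became 0.083 without that array. The dimmer one (1417312_at) read 6.10, 5.63 and 7.24 in double-null arrays 1, 2 and 3, against 6.98, 7.27 and 6.90 in Fz8-null arrays 1, 2 and 3. Its difference of -0.73 (SE 0.40, adjusted p = 0.366) rested on double-null arrays 1 and 2, and it was -1.19 without double-null array 3 (adjusted p = 0.0101, where 23.9% of all probe sets passed) and 0.21 in the B1 covariate fit.

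Notum, a secreted enzyme that removes the lipid from Wnt ligands and a feedback target of canonical Wnt signalling, had the largest absolute difference among the 10 brightest probe sets. It read 5.57, 5.26 and 5.92 in double-null arrays 1, 2 and 3, against 6.26, 6.48 and 6.23 in Fz8-null arrays 1, 2 and 3 (1451857_a_at). All double-null values were below all Fz8-null values, by 0.402 or more from the Fz8-null mean. The difference was -0.74 (SE 0.19, limma adjusted p = 0.314; 95% interval -1.20 to -0.28), a ratio of 0.598. It stayed negative when any single array was left out, between -0.91 and -0.58, and it passed without double-null array 3 (-0.91, adjusted p = 0.0153), a fit in which 18.1% of all genes passed. In the B1 covariate fit the Notum difference was -0.37 (adjusted p = 0.961). Its single probe set leaves no further probe set to compare.

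Apcdd1, which binds Wnt and Lrp5 at the cell surface and is also induced by Wnt signalling, had 6 probe sets that did not move alike. The brightest (1454822_x_at) read 10.20, 10.06 and 9.95 in double-null arrays 1, 2 and 3, against 9.87, 9.80 and 9.68 in Fz8-null arrays 1, 2 and 3. It was higher in each double-null array, at 0.29 (SE 0.13, limma adjusted p = 0.338; 95% interval -0.026 to 0.60). Probe sets 1418382_at and 1449070_x_at stood at 0.14 and 0.10, and probe sets 1418383_at and 1437604_x_at at -0.34 and -0.24, all 4 with overlapping groups. The probe set with the largest difference of all 23 (1443639_at) read 6.93, 7.22 and 6.14 in double-null arrays 1, 2 and 3, against 5.56, 5.75 and 5.64 in Fz8-null arrays 1, 2 and 3. Its difference was 1.12 (SE 0.28, limma adjusted p = 0.323). The order of its double-null arrays, with array 2 highest and array 3 lowest, was that of the B1 repeat control. Among the Fz8-null arrays its order was the reverse of that control, which read 11.02, 10.67 and 10.73 in arrays 1, 2 and 3. With the B1 repeat control as a covariate the difference of 1443639_at was 0.53 (limma adjusted p = 0.9997). Without double-null array 3 it was 1.43 (adjusted p = 0.00341), a fit in which 23.9% of all probe sets passed.

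**Figure D2:**
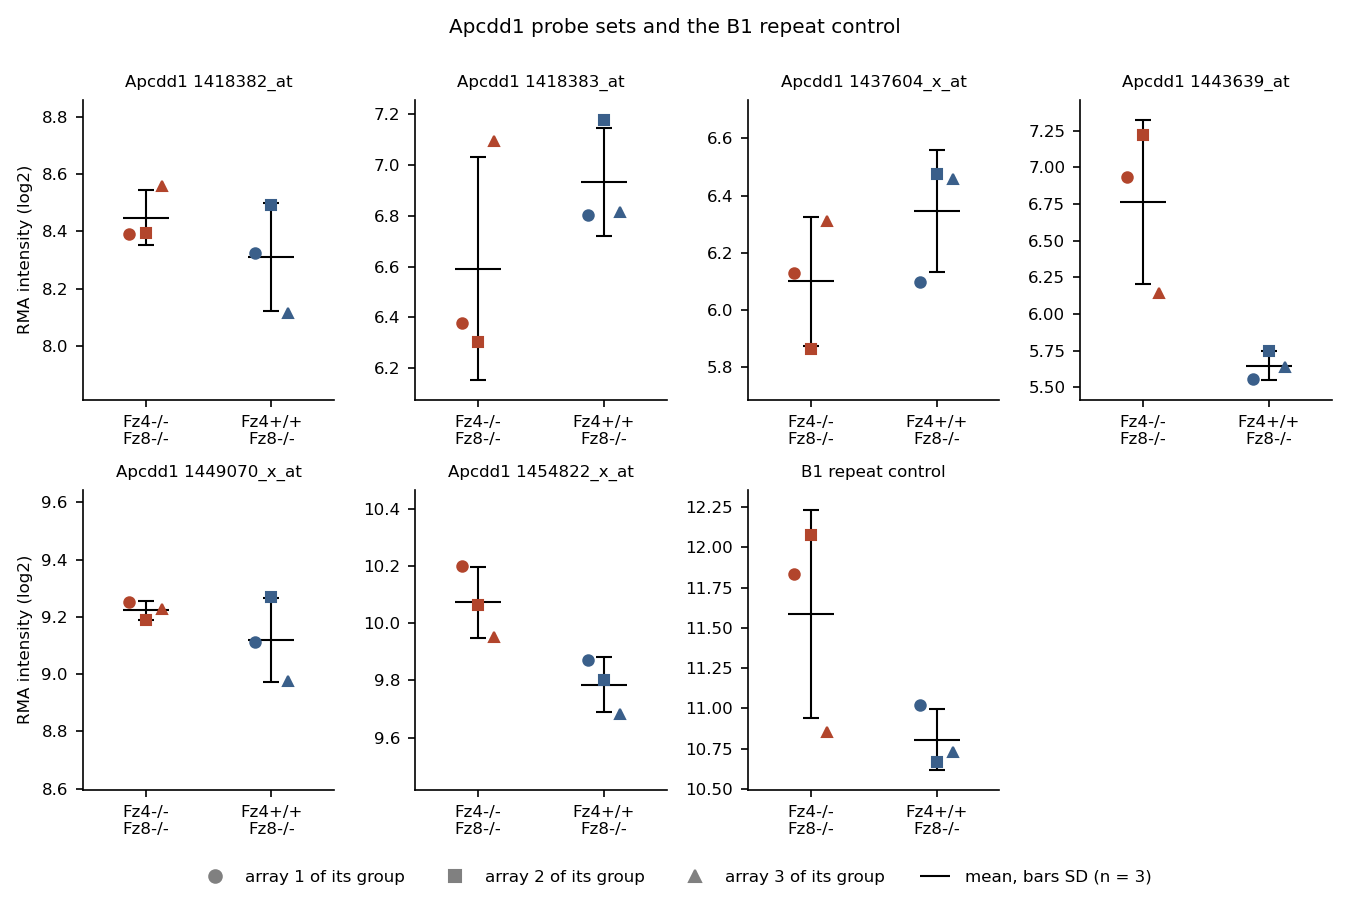
RMA log2 intensity (vertical axis) of the 6 Apcdd1 probe sets and of the B1 repeat control in double-null arrays (red, left) and Fz8-null arrays (blue, right), with the mean and SD of 3 arrays. Probe set 1443639_at is highest in double-null arrays 1 and 2 (6.93 and 7.22), the arrays with the highest B1 signal (11.83 and 12.08), while 1418383_at is lowest in the same arrays. Among Fz8-null arrays, 1443639_at is highest in array 2 (5.75), where the B1 signal is lowest (10.67).

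Across all 23 probe sets, 15 differences were negative and 8 positive, with a median of -0.20 beside -0.044 over all probe sets. Without overlap, 2 lay lower and 3 higher, where 11.3% and 7.35% of all probe sets did, 18.6% together. The arrays differed in how many of the 23 lay below every Fz8-null array: 11 in double-null array 1, 13 in array 2 and 3 in array 3, which is 47.8%, 56.5% and 13.0%. Over all probe sets the shares were 41.4%, 43.6% and 25.7%, so arrays 1 and 2 had the larger share over the whole table too. Of the 6 genes with several probe sets, Rspo3, Frzb and Apcdd1 had differences of both signs. Dkk1, Dkk3 and Sfrp1 had negative differences in each of their probe sets. Array weights were 3.93, 0.476 and 0.211 for double-null arrays 1, 2 and 3, so array 1 weighed most in its group. For Fz8-null arrays 1, 2 and 3 they were 0.492, 2.90 and 1.78. With array weights 6 of the 10 genes passed, and 41.6% of all genes did. Those 6 were Rspo1, Rspo3, Dkk1 and Notum on the lower side, and Wif1 and Apcdd1 on the higher side.

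**Figure D3:**
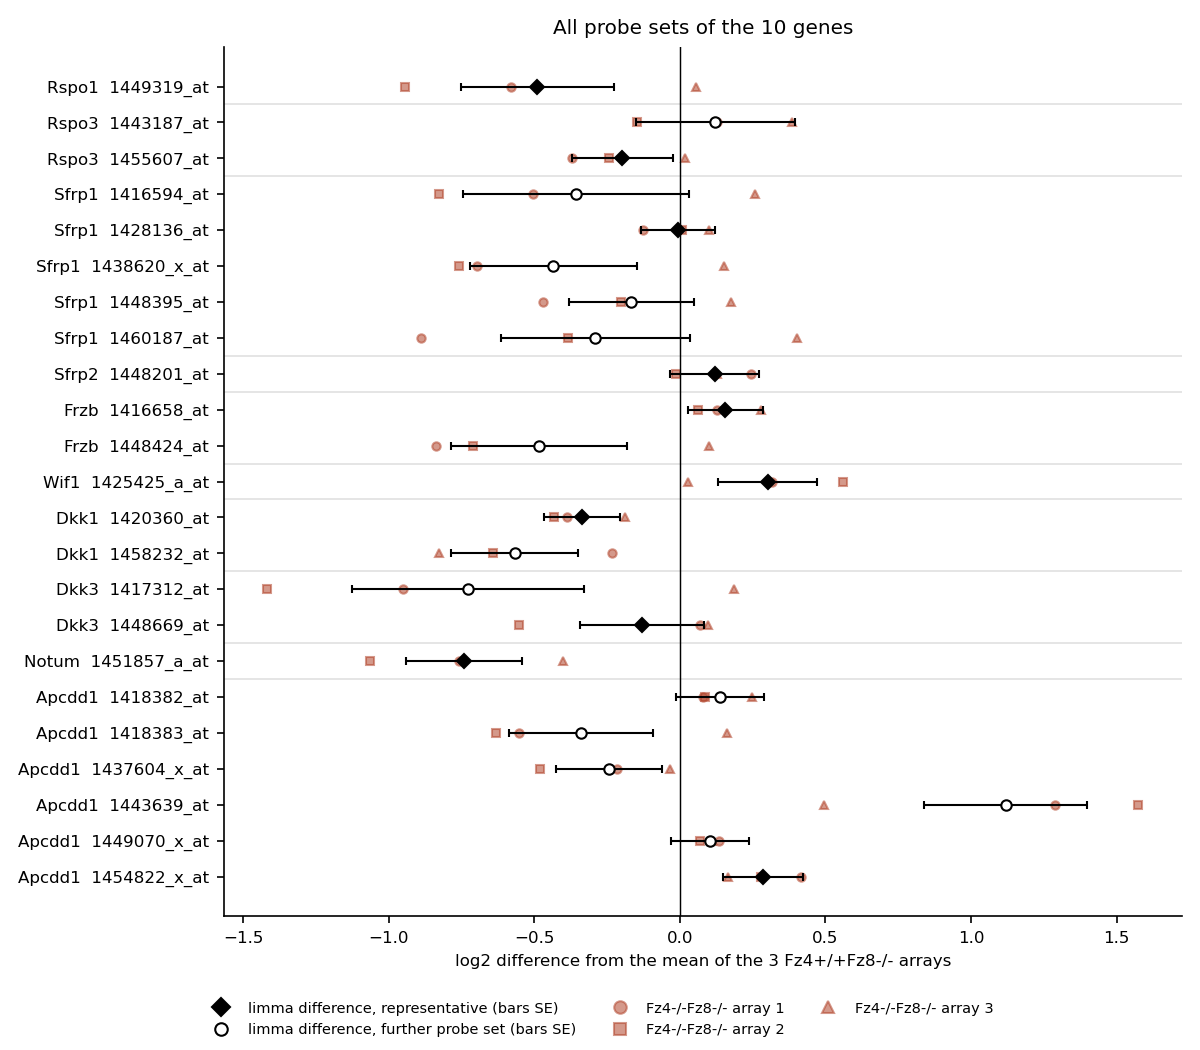
Log2 difference from the mean of the 3 Fz8-null arrays (horizontal axis) for each of the 23 probe sets. Black marks are the limma difference with its SE (diamond for the brightest probe set of a gene, open circle for the others), and red marks are the single double-null arrays. For Rspo1, Rspo3 1455607_at, 4 of 5 Sfrp1 probe sets, Frzb 1448424_at, Dkk3 1417312_at and Apcdd1 1418383_at, arrays 1 and 2 lie below 0 and array 3 above it.

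Other R-spondin and antagonist genes gave no call either, with 0 of 15 measured called in each direction by limma and a median of -0.14. At an unadjusted p under 0.05 limma gave 3, beside 15.3% of all genes. The 2 of smallest p were Sostdc1, an antagonist of Lrp5, Lrp6 and of BMPs, and Shisa2, of a family whose founding Xenopus member holds Frizzled in the endoplasmic reticulum. Sostdc1 read 7.95, 7.31 and 7.70 in double-null arrays 1, 2 and 3, against 7.07, 7.04 and 7.02 in Fz8-null arrays 1, 2 and 3, a difference of 0.61 (SE 0.18, limma adjusted p = 0.314). Shisa2 read 10.75, 10.74 and 10.84 in double-null arrays 1, 2 and 3, against 10.98, 11.39 and 11.41 in Fz8-null arrays 1, 2 and 3, a difference of -0.48 (SE 0.16, adjusted p = 0.314). Neither gene's groups overlapped. Of the 15 genes, 2 lay higher and 2 lower without overlap, where 6.68% and 12.2% of all genes did.

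Of 14 measured receptors and partners of these proteins, 0 were called in either direction by limma. At an unadjusted p under 0.05 limma gave 4, beside 15.3% of all genes. Of the differences 10 were negative and 4 positive, and the median was -0.20. Lgr6, an R-spondin receptor gene, read 4.68, 4.30 and 5.52 in double-null arrays 1, 2 and 3, against 5.59, 6.16 and 6.01 in Fz8-null arrays 1, 2 and 3, a difference of -1.09 (SE 0.32, limma adjusted p = 0.314). With the mean of all its probe sets the Lgr6 difference was -0.55. Gpc2, one of the glypicans, cell surface proteoglycans that bind Wnts, stood at -0.51 (SE 0.19, adjusted p = 0.314). By the brightest probe set, both lay lower in every double-null array than in any Fz8-null array, as 12.2% of all genes did. The other R-spondin receptor genes, Lgr5 and Lgr4, had positive differences with overlapping groups. Lgr5 read 7.04, 7.68 and 5.39 in double-null arrays 1, 2 and 3, against 5.58, 5.72 and 5.50 in Fz8-null arrays 1, 2 and 3. Its difference was 1.11 (SE 0.53, limma adjusted p = 0.348), and that of Lgr4 was 0.24 (SE 0.22, adjusted p = 0.579).

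Of 11 genes of Wnt ligands and their secretion, 0 were called by limma. At an unadjusted p under 0.05 limma gave 2, beside 15.3% of all genes. Of the differences 9 were negative and 2 positive, and the median was -0.25. Wnt6, a ligand gene of the ureteric bud, read 5.21, 5.31 and 6.24 in double-null arrays 1, 2 and 3, against 6.58, 6.71 and 6.48 in Fz8-null arrays 1, 2 and 3, at -1.003 (SE 0.28, limma adjusted p = 0.314). Wnt4, the ligand of the forming nephron, stood at -0.47 (SE 0.19, adjusted p = 0.319). Neither gene's groups overlapped, and 12.2% of all genes lay lower in the same way.

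Canonical Wnt targets other than the 10 genes gave 0 calls by limma among 14 measured. At an unadjusted p under 0.05 limma gave 1, beside 15.3% of all genes. There were 11 negative and 3 positive differences, with a median of -0.14. Lgr5, Rnf43 and Znrf3 were counted here and also among the receptors and partners, so the counts of these lists are not independent. Axin2, a feedback inhibitor that is widely used as a reporter of the pathway, read 8.71, 8.38 and 9.18 in double-null arrays 1, 2 and 3, against 9.63, 9.55 and 9.62 in Fz8-null arrays 1, 2 and 3. It lay lower in all 3 without overlap, as 12.2% of all genes did, at -0.84 (SE 0.21, limma adjusted p = 0.314). Axin2 passed without double-null array 3 (-1.06, adjusted p = 0.00893), where 18.1% of all genes passed. In the B1 covariate fit the Axin2 difference was -0.42 (adjusted p = 0.951), and it was -0.52 with the mean of all its probe sets. Rnf43, the ligase that R-spondins hold back, stood at -0.90 (SE 0.39, adjusted p = 0.328) with overlapping groups, between -1.33 without double-null array 3 and -0.50 without double-null array 2.

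**Figure D4:**
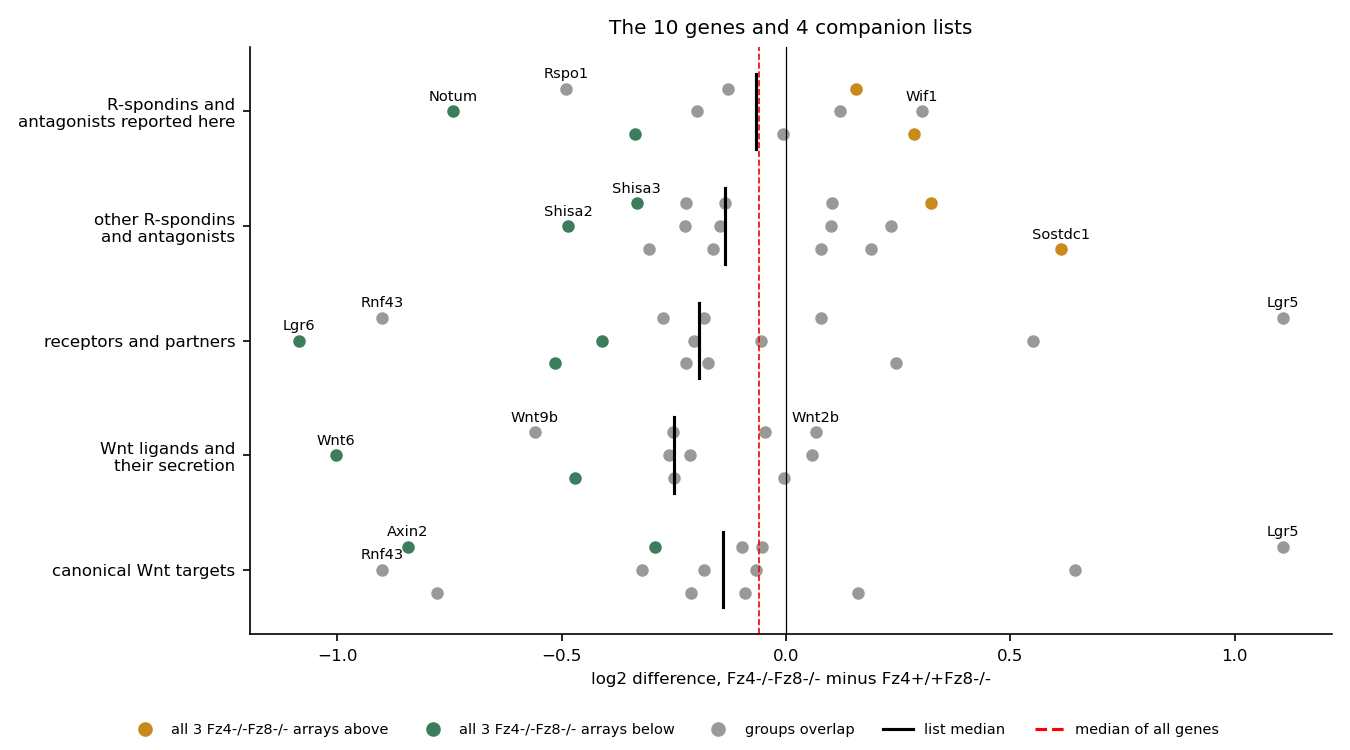
Log2 difference, double-null minus Fz8-null (horizontal axis), of each gene in the 10 genes and in 4 companion lists. Points are genes, coloured by whether all 3 double-null arrays lay above (ochre) or below (green) all Fz8-null arrays. Black lines are list medians, from -0.25 for the Wnt ligands to -0.068 for the 10 genes, and the dashed line is the median of all genes at -0.061. The median over genes with a mean of at least 6, which is not drawn, was -0.148.

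For the 4 genes whose groups did not overlap, the genes with the most similar values over the 6 arrays were named by Pearson correlation among genes with a mean of at least 6. These were Trappc1, Uckl1 and Stx12 for Frzb (0.99, 0.97 and 0.97), and Syt11, Kcne1l and Lipt1 for Dkk1 (each 1.00 when rounded). For Notum they were Dus4l, Rdh11 and Ier5l (1.00, 1.00 and 0.99), and for Apcdd1 they were Celf4, Zc3h15 and Cenpk (1.00, 0.99 and 0.98). With 6 arrays such values are common: 490 of 11173 genes correlated above 0.95 with Dkk1 and 459 of 11174 with Notum, against 9 for Frzb and 27 for Apcdd1. The points share the arrays and the difference between groups.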

How the data were processed

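The deposited values are log2 intensities, 1 for every probe set on every array, which the authors had normalized with RMA, per the submitters' processing notes (version not given in the sources used here). Of 45101 probe sets, 64 controls were set aside and 45037 tested. The platform annotation gave 1 gene for 34945, several for 932 and none for 9160; no probe set of the 10 genes carried a second gene. Each of 18193 genes was represented by its brightest probe set over the 6 arrays.

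Double-null and Fz8-null arrays were compared with limma 3.58.1 in R 4.3.3 (lmFit, eBayes without trend, two-sided), with Benjamini-Hochberg adjustment over all genes for brightest probe sets and over all probe sets for the others. SE is limma's moderated standard error, from which 95% intervals were made. The code was tested on simulated data. The labels call the arrays biological replicates and do not give litters. The 10 genes and the companion and marker lists were chosen with earlier results of these data known. Named from each list were genes past the threshold or, failing that, the 2 of smallest p. Alternatives were a minimum mean of 6, quantile normalization, equal medians, trend and robust eBayes, array weights, a replicate block, leaving out each array, the mean of all probe sets, an adjusted p of 0.1 and, added later, a B1 covariate. Kremen2 and Tcf7 were not measured alone by any probe set.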

Additional observations from a re-analysis of the deposited data

How the results depend on the processing

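There were 3 arrays a group, and double-null array 3 was unlike arrays 1 and 2. Of the 10 genes, 0 passed by limma in the main fit and 6 with array weights; leaving out single arrays gave 0 to 2. Over all genes 5 passed in the main fit, 11 at an adjusted p of 0.1, 7576 with array weights, 3 with the replicate block, 1 with the mean of all probe sets, 3 with the B1 covariate, and 2 to 3292 without single arrays. Over all probe sets the count was 5, against 20686 with array weights, 0 with the replicate block (7277 at an unadjusted p under 0.05) and 0 to 10747 without single arrays. The replicate block changed the call of none of the 10 genes. The correlation between residuals of arrays with the same number was 0.17, -0.14 and 0.09, so the numbers were not taken as pairs.

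Signs that turned belonged to differences that did not pass, and the cause was not tested. With the B1 covariate they were Rspo1 (0.023), Rspo3 (0.058), Sfrp1 (0.089), Wif1 (-0.00049), Dkk3 (0.20), Fzd8 (0.030), and the further probe sets of Sfrp1 (1416594_at 0.45, 1438620_x_at 0.18, 1448395_at 0.20, 1460187_at 0.37), Frzb (0.17), Dkk3 (0.21) and Apcdd1 (1418383_at 0.19, 1437604_x_at 0.051). Differences that kept their sign but shrank by over 1.5 times in that fit were those of Dkk1 (-0.18), Notum (-0.37), Apcdd1 (0.17), Lgr6 (-0.30), Wnt6 (-0.39), Wnt4 (-0.30), Axin2 (-0.42), Rnf43 (-0.070) and 1443639_at (0.53), among the genes and probe sets named from the 10 genes and their companion lists. Sfrp1 turned with quantile normalization (0.052) and equal medians (0.049). With the mean of all probe sets Frzb (-0.16), Stx12 (-0.021), Lipt1 (0.078), Dus4l (0.11) and Cenpk (-0.020) turned. The dim Rspo3 probe set 1443187_at turned with quantile normalization (-0.035) and array weights (-0.090). Leaving out single arrays gave ranges that crossed 0 for Sfrp1 (-0.060 to 0.055), Dkk3 (-0.24 to 0.083), Sfrp1 1460187_at (-0.64 to 0.0080) and Rspo3 1443187_at (-0.14 to 0.34). Fzd4 had an adjusted p of 0.0635 without Fz8-null array 1 and 0.0507 without Fz8-null array 3, with differences from -6.42 to -5.71 over the arrays left out.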
